A study of Mus musculus with 64 samples.

Results

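Cytosolic ribosomal protein genes were examined in the brain of mice carrying the Arg87Cys change in 1 copy of *Cyfip2*. The members were the protein-coding genes named Rpl or Rps with a number, together with *Rplp0*, *Rplp1*, *Rplp2* and *Rpsa*, and the kinases named Rps6k were left out. This rule took 81 of the 18432 genes in the table, 32 of the small subunit and 49 of the large subunit, and 15496 genes of the table were protein-coding. The rule finds 83 genes in the annotation, of which *Rpl10l* and *Rpl39l* were not analysed here. RNA was sequenced from cortex and hippocampus of *Cyfip2* +/R87C mice (knock-in, KI) and wild-type (WT) littermates, all of the C57BL/6N strain, at postnatal week (PWK) 1, 7, 14 and 28. There were 4 libraries of each genotype at each age in each region, 16 groups and 64 libraries in all. The knock-in is a codon change present in every cell, so that the level of *Cyfip2* RNA does not check the genotype labels. At PWK 28 *Cyfip2* was at 34022 to 35279 normalized counts in WT and 21597 to 30055 in KI cortex, and at 26732 to 29266 in WT and 24732 to 29612 in KI hippocampus. At PWK 1 it was at 16451 to 19303 in WT and 18833 to 20143 in KI cortex. The labels name the tissue cortex and the study describes it as frontal cortex. The neuronal markers *Snap25* and *Slc17a7* were high in all 64 libraries, at 21720 to 85230 and 22730 to 77640 normalized counts.

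Ribosomes translate messenger RNA into protein, and each is built from ribosomal RNA and the proteins of its small and large subunit in fixed proportions. The messenger RNAs of these proteins begin with a run of pyrimidines, the terminal oligopyrimidine or TOP motif, through which mTOR signalling and the RNA-binding protein Larp1 control how well they are translated. In the brain, ribosomes are made at a high rate in dividing precursors and growing neurons, and neurons also carry ribosomes and ribosomal protein messenger RNAs into dendrites and axons.

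The genes are short and spread over the genome. They lie on 19 chromosomes, with 14 on chromosome 7. Their median transcript length was 774 bases, from 345 to 5130, against 2567 bases over the 18420 genes with an annotated length, and 62 of the 81 (76.5%) were under 1000 bases against 10.4% of all genes. Their median GC content was 51.8%, against 50.1% over all genes. *Rps21*, the gene with the most differences between genotypes below, lies on chromosome 2 at 180257377 to 180258445 (GRCm38, plus strand), and *Rpsa*, which encodes a small subunit protein also known as the laminin receptor precursor, lies on chromosome 9 at 120127689 to 120132369 (plus strand). Many processed copies of these genes exist in the genome, and 15 pseudogenes in the table bore the name of 14 of the members.

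Short stretches of promoter show 2 sequence features that many of these genes hold. The windows, taken from RefSeq on GRCm38.p6, reach from 250 bases before to 50 bases after the annotated start and were found for 61 of the 81 genes. A pyrimidine tract, counted here as at least 8 consecutive C or T on the gene strand beginning within 20 bases of the start, was found in 31 of the 61 (50.8%) and in 19.6% of all 27025 genes with a window. The following 5 are printed 5′ to 3′ on the gene strand with the tract in capitals. They belong to *Rps6*, the substrate of the S6 kinases, to *Rplp2* of the acidic stalk, and to 3 genes that were lower in KI cortex at PWK 28.
Rps6, chr4:86857349-86857378, minus strand: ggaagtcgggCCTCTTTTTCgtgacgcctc
Rplp2, chr7:141447636-141447665, plus strand: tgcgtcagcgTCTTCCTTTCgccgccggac
Rpl35a, chr16:33056468-33056497, plus strand: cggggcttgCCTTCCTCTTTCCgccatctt
Rps9, chr7:3704024-3704053, plus strand: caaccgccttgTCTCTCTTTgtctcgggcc
Rpl13, chr8:123102324-123102353, plus strand: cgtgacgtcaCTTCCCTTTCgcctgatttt

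The letters CCGGAAG, the core of sites bound by ETS-family factors, were found on either strand in 25 of the 61 genes (41.0%) and in 9.93% of all genes with a window. On the opposite strand they read CTTCCGG, whose first 5 letters can form part of a pyrimidine tract. The following 4 stretches carry them in capitals and belong to *Rps21*, which differed most often between genotypes, to *Rpsa* and *Rps2*, which fell most with age in cortex beside *Rplp0*, and to *Rpl37*.
Rps21, chr2:180257279-180257308, plus strand: gctttctttgcaCCGGAAGcggaagttaaa
Rpsa, chr9:120127566-120127595, plus strand: tcgccccagctaCTTCCGGcctggggtctg
Rps2, chr17:24719924-24719953, plus strand: tatttatacgtcCTTCCGGctggtgtaggg
Rpl37, chr15:5116578-5116607, plus strand: caccaagacccgCCGGAAGtagtttcctgg

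Of the other letters searched, AAGATGGC, which resembles the site of YY1, was found on either strand in 6 of the 61 (9.84%, against 3.19% of all genes with a window). TATAAA between 40 and 15 bases before the start was found on the gene strand in 1 (1.64%, against 2.41%). AAGATGGC reads GCCATCTT on the opposite strand, whose last letters CTT can also begin a tract. A match to these letters is a description of the sequence and does not show that a factor binds there.

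Levels of the members were compared per kilobase (kb) of transcript, as the mean normalized count over all libraries divided by the median annotated transcript length. The median member stood at 4250 per kb. *Rps24* (11890 per kb), the stalk protein gene *Rplp1* (11780 per kb) and *Rpl41*, which encodes the smallest ribosomal protein (10330 per kb), were highest. *Rps27* (277.1 per kb), *Rpl12* (258.3 per kb) and *Rpl3l* (6.054 per kb) were lowest, and 8 of the 81 members lay under 1000 per kb. The order at the top depended on the length used: per kb of the longest transcript *Rps24* was 59th of 81, and per kb of coding sequence *Rpl41* was first, at 72520 per kb. Some low levels depended on it too. *Rps15a* and *Rps20*, with annotated lengths of 5130 and 3706 bases, stood at 720 and 567.7 per kb of transcript. Per kb of coding sequence they stood at 9470 and 5893. Replicates of a group were close for most members, with a median coefficient of variation of 5.69%, as low as 3.04% for *Rpl4* and as high as 57.9% for *Rps27*.

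The 4 paralogues, which resemble a core member, had lower counts than it, except for *Rps27l*. *Rpl22l1* was between 585 and 982 normalized counts per library, where *Rpl22* was between 1825 and 3385, and *Rpl7l1* between 674 and 1220, where *Rpl7* was between 3944 and 6299. *Rpl3l*, the heart and muscle counterpart of *Rpl3*, was between 0 and 24 normalized counts per library, where *Rpl3* was between 8920 and 13079. *Rps27l*, a p53-responsive relative of *Rps27*, was between 108 and 323 counts per library. *Rps27* itself, however, was lower still in most libraries. Its retrocopy *Rps27rt*, a nearly identical gene, was between 836 and 2269 counts in the 64 libraries, while *Rps27* was between 26 and 1091, and their sum was between 1143 and 2332. In KI cortex at PWK 28 the library with the highest *Rps27*, replicate 3 at 1091 counts, also had the lowest *Rps27rt*, at 836. *Rpl10*, an X-linked gene whose protein completes the large subunit, had a similar partner: it lay between 586 and 2283 counts and *Rpl10-ps3* between 3529 and 5661. Estimated counts can be split between such near-identical copies in more than one way, and values of *Rps27* and *Rpl10* are therefore uncertain.

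The members together took between 0.707% and 1.11% of the normalized counts of a library, whose totals lay between 29230000 and 32600000 after the authors' scaling. In WT cortex this share was 1.04, 1.02, 0.974 and 1.02% at PWK 1 and 0.804, 0.826, 0.819 and 0.793% at PWK 7, and the 2 ages did not overlap. In cortex at PWK 28 it was 0.955, 0.928, 0.871 and 0.856% in WT and 0.766, 0.83, 0.809 and 0.746% in KI libraries, with every KI library under every WT library. In hippocampus at PWK 28 it was 0.97, 0.98, 0.988 and 0.966% in WT and 0.94, 0.893, 0.94 and 0.934% in KI libraries, again without overlap. At the other 3 ages the 2 genotypes overlapped in both regions. No test was made on this sum. Without the mitochondrially encoded genes, it was 0.915 to 1.03% in WT and 0.799 to 0.889% in KI cortex at PWK 28. In bulk tissue, fewer cells of a type and less RNA per cell cannot be told apart.

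**Figure D1:**
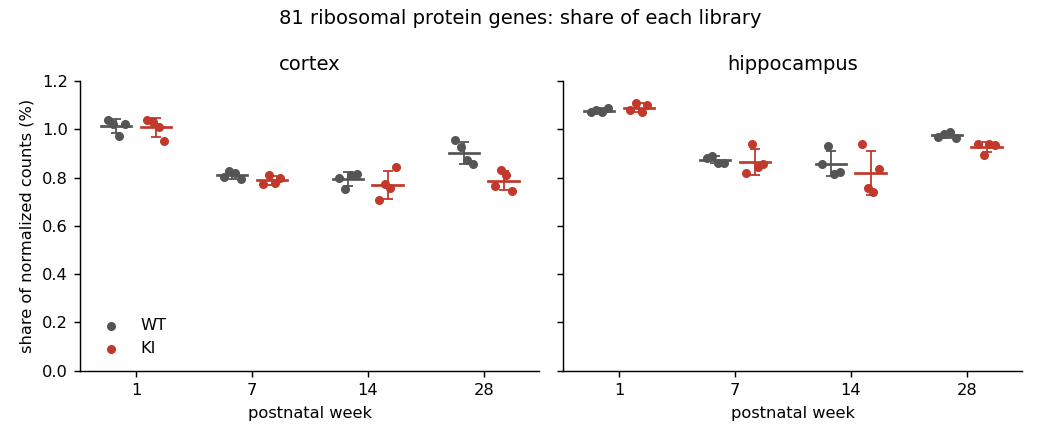
Share of the normalized counts of each library, in percent, taken by the 81 ribosomal protein genes, by postnatal week (ages equally spaced) for cortex and hippocampus; points are libraries, bars the mean and SD of 4. In WT cortex shares fell from 0.974 to 1.04% at PWK 1 to 0.793 to 0.826% at PWK 7, and at PWK 28 the KI points lie under all WT points in both regions, from 0.746 to 0.83% in cortex.

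Most calls among the members lay between ages, which were compared first in WT mice. Genes were called where limma's moderated test gave a Benjamini-Hochberg adjusted p under 0.05 over all genes tested. The labels do not say that each library came from its own mouse, so the p-values measure only the spread between libraries, which may be technical. All 81 members passed the filter on low values in every comparison. From PWK 1 to PWK 7, 54 of the 81 members fell and 5 rose in cortex, where 32.3% of all genes fell and 33.2% rose, and the median log2 fold change was -0.26 for the members and 0.01 for all genes. In hippocampus 48 fell and 7 rose, where 30.4% of all genes fell and 31.8% rose, with a members' median of -0.21. The 2 regions called 46 of the same members lower and 4 of the same members higher, and none in opposite directions.

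The largest falls in cortex were in *Rplp0*, the base of the ribosomal stalk that recruits translation factors, and in the small subunit genes *Rps2* and *Rpsa*. *Rplp0* stood at 9108, 9503, 8792 and 9339 normalized counts in WT cortex at PWK 1 and at 3700, 3914, 3973 and 4031 at PWK 7. Its log2 fold change was -1.23 in cortex (limma, adjusted p = 1.6e-13) and -1.06 in hippocampus (adjusted p = 4.2e-12), without any overlap of libraries in either region. *Rpsa* was at 14726, 15675, 15946 and 15922 counts at PWK 1 and at 7164, 7827, 7848 and 7617 counts at PWK 7 in cortex, a log2 fold change of -1.03, and fell by 0.73 on the log2 scale in hippocampus. *Rps2* stood at 13963, 13878, 14368 and 14596 counts at PWK 1 and at 6909, 6480, 6521 and 6509 at PWK 7 in cortex, and its log2 fold change was -1.10 there and -0.86 in hippocampus. *Rpl5*, whose protein joins the 5S ribosomal RNA and can bind Mdm2, fell by 0.92 and 0.86, the latter a larger fall than that of *Rpsa* in hippocampus, and *Rps26* by 0.87 and 0.65. The X-linked *Rps4x* fell by 0.52 and 0.45.

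A small group rose over the same weeks. *Rps21*, a small subunit gene, stood at 1546, 1396, 1468 and 1489 counts in WT cortex at PWK 1 and at 2412, 2269, 2255 and 2224 at PWK 7, with no overlap and a log2 fold change of 0.63 (limma, adjusted p = 3.9e-07), and rose by 0.53 on the log2 scale in hippocampus. *Rps15* rose by 0.26 and 0.19, *Rpl9* by 0.23 and 0.19 and *Rpl35a* by 0.23 and 0.15 in cortex and hippocampus. *Rpl37* rose by 0.30 in hippocampus and had a log2 fold change of 0.18 (adjusted p = 0.11) in cortex. *Rps6* had log2 fold changes of -0.02 in both regions, which did not pass the test. Members thus moved in both directions over these weeks.

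From PWK 7 to PWK 28 most of the members that changed rose, in 30 members against 3 that fell in cortex (9.82% and 10.7% of all genes) and in 36 against 5 in hippocampus (7.54% and 9.93% of all genes). The members' median log2 fold change was 0.11 in cortex and 0.12 in hippocampus, and that of all genes -0.01 in both. Of the members, 25 rose and 2 fell in both regions. In WT cortex the members' mean share of counts was 0.8105% at PWK 7, 0.7945% at PWK 14 and 0.9025% at PWK 28. In WT hippocampus it was 0.8738, 0.857 and 0.976% at these ages. The study presents the oldest age as a further transcriptome analysis, apart from the younger ages. Any separate processing would coincide with the oldest age, and its part in these changes was not tested. *Rps23*, which encodes a protein of the decoding centre, stood at 1618, 1697, 1643 and 1713 counts in WT cortex at PWK 7 and at 2892, 3125, 2520 and 2162 at PWK 28, a log2 fold change of 0.67, and rose by 0.78 on the log2 scale in hippocampus. *Rpl27* rose by 0.57 and 0.63 and *Rps28* by 0.40 and 0.52. *Rps20* fell in both regions, by 0.32 and 0.35, as did *Rpl28*, by 0.22 and 0.34. In cortex the call of *Rpl28* held under 8 of 17 alternatives. The called rise of *Rps27* in cortex (1.55) rests on counts of 44 to 74 at PWK 7 and 64 to 266 at PWK 28 and is uncertain because of its retrocopy.

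**Figure D2:**
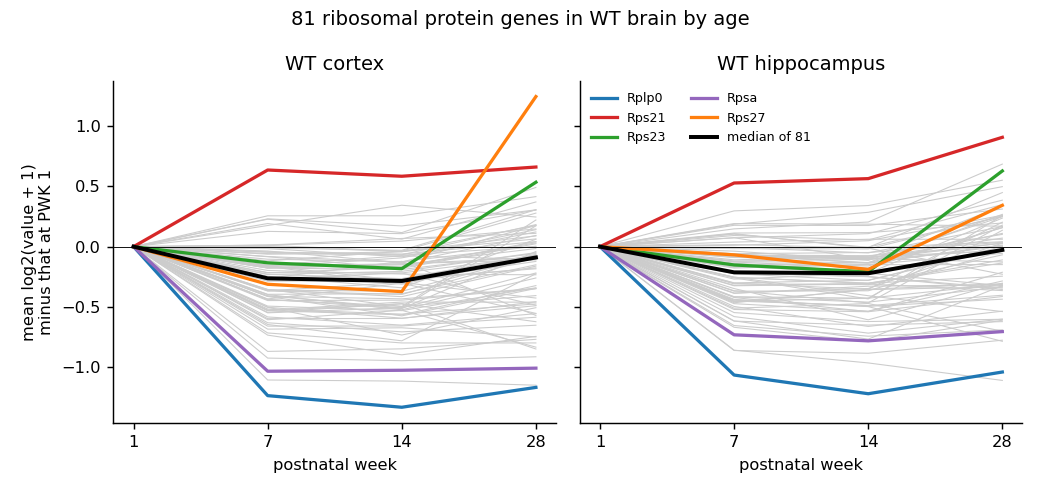
Mean log2(normalized count + 1) of each of the 81 genes (grey lines) relative to its mean at PWK 1, in WT cortex and hippocampus by postnatal week (ages equally spaced, n = 4 libraries per point); named genes are coloured and the black line is the median of the 81. Most lines drop between PWK 1 and 7, *Rplp0* by 1.23 in cortex, while *Rps21* climbs by 0.63 and *Rps23* turns up after PWK 14.

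Genes of initiation, elongation and ribosome biogenesis also fell more often than they rose from PWK 1 to PWK 7. Of all genes, 32.3% fell and 33.2% rose in cortex over these weeks, and 30.4% and 31.8% in hippocampus. The lists of these genes were chosen with earlier results of these data known. Of 34 initiation factor genes, 26 fell and 0 rose in cortex from PWK 1 to PWK 7 (median log2 fold change -0.35), and 20 fell and 3 rose in hippocampus. Of 13 genes of elongation factors and other TOP messenger RNAs, 12 fell and 0 rose in each region. Of 30 ribosome biogenesis genes, 16 fell and 2 rose in cortex, and 13 fell and 7 rose in hippocampus. The 78 genes of mitochondrial ribosomal proteins did not move in 1 direction, with 27 lower and 18 higher in cortex and 19 lower and 21 higher in hippocampus. Markers of dividing cells (3 of 3), immature neurons (2 of 2), precursors (2 of 2) and erythroid cells (3 of 3) fell over the same weeks in both regions. Those of oligodendrocytes (4 of 4) and neurons (6 of 6) rose in both. Of the 5 microglia markers, 5 rose in cortex and 4 in hippocampus. Astrocyte and endothelial markers went both ways, and 1 of 3 choroid plexus markers rose in each region. In cortex the summed counts of the dividing cell markers went from 1317 to 2119 down to 175.4 to 215, and those of the oligodendrocyte markers from 5013 to 12840 up to 116000 to 146400. Their part in the members' change was not tested.

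The 2 regions were compared next in WT mice. At PWK 1, 2 members were higher and 3 lower in hippocampus than in cortex (16.1% and 18.6% of all genes), with a median log2 difference of -0.00. At PWK 7, 24 were higher and 3 lower (20.4% and 20.4% of all genes), at PWK 14, 10 and 1 (17.0% and 17.6%), and at PWK 28, 22 and 3 (18.8% and 19.0%). The medians at these 3 ages were 0.07, 0.07 and 0.08 on the log2 scale, and those of all genes 0.01. The share of members called higher was 29.6, 12.3 and 27.2% at these 3 ages, above that of all genes at PWK 7 and 28 and below it at PWK 14, and the share called lower was 3.70, 1.23 and 3.70%. Markers of other cells also differed between the regions. The 3 choroid plexus markers were higher in hippocampus at every age, with sums of 35840 to 121700 counts against 278.2 to 21120 in cortex at PWK 28. Of the 6 neuronal markers 5, 4 and 6 were lower in hippocampus at PWK 7, 14 and 28. Their part in the members' differences was not tested.

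The members that differed most between regions varied with age. *Rps28* was higher in hippocampus by 0.26 at PWK 7 and 0.38 at PWK 28, and *Rps9* by 0.14, 0.21, 0.21 and 0.14 at the 4 ages in order, all called. *Rps15a* and *Rps16* were higher by 0.34 and 0.30 at PWK 7, *Rpl3* by 0.20 at PWK 14, and *Rpl36a* and *Rps12* by 0.34 and 0.33 at PWK 28. *Rpl29* went the other way, with log2 differences of -0.15, -0.11 and -0.19 at PWK 1, 7 and 28. At PWK 7 the calls of *Rps28* and *Rpl29* held under 6 and 8 of 17 alternatives. The lower call of *Rps27* at PWK 28 (-1.17) carries the uncertainty given above. With another scaling of the libraries the count at PWK 1 was 23 (total sum) or 24 (quantile), all higher in hippocampus, and the members' median turned to 0.09 or 0.07, where that of all genes was 0.09 or -0.02. The direction at PWK 1 is therefore not settled by these data.

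The genotypes were then compared within each age and region. At PWK 1 and 7 no member was called in either region. The count in cortex at PWK 1 was 0 of 81 in limma, where 0.00546% of all genes were called. At an unadjusted p under 0.05 it was 0, against 5.27% of all genes. At PWK 7 in cortex the count was 0, with 0.00545% of all genes called. At an unadjusted p under 0.05 it was 8, against 8.05% of all genes. In hippocampus the counts were 0 and 0 at PWK 1 and 7, with 0.0109% and 0.0218% of all genes called. At an unadjusted p under 0.05 they were 11 and 6, against 5.46% and 6.22% of all genes. At PWK 1 in hippocampus 61 of the 81 fold changes were positive, with a median of 0.03. There 6 members had every KI library above every WT library, as did 1.84% of all genes. At PWK 7 in cortex 9 members (11.1%) had every KI library below every WT library, as did 2.17% of all genes. In hippocampus at PWK 7 it was 4 members (4.94%), against 2.25% of all genes. In each of these comparisons 0 members had the opposite order.

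At PWK 14 and 28 all members called were lower in KI mice. In cortex 1 member was lower at PWK 14, where 2.70% of all genes were lower, and 22 (27.2%) were lower at PWK 28, where 1845 of 18387 genes (10%) were. In hippocampus 6 members (7.41%) were lower at PWK 14 and 4 (4.94%) at PWK 28, where 7.95% and 6.91% of all genes were lower. Of these 4 comparisons, the share of members called lower was above that of all genes in cortex at PWK 28. At the same age in hippocampus, 13 members (16%) had every KI library below every WT library, as did 9.77% of all genes. In the cortex at that age 72 of the 81 fold changes were negative. The median there was -0.16 on the log2 scale against -0.00 for all genes. Of the members, 21 had every KI library below every WT library, as 11.8% of all genes did. An unadjusted p under 0.05 was found for 40 members and for 35.5% of all genes.

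**Figure D3:**
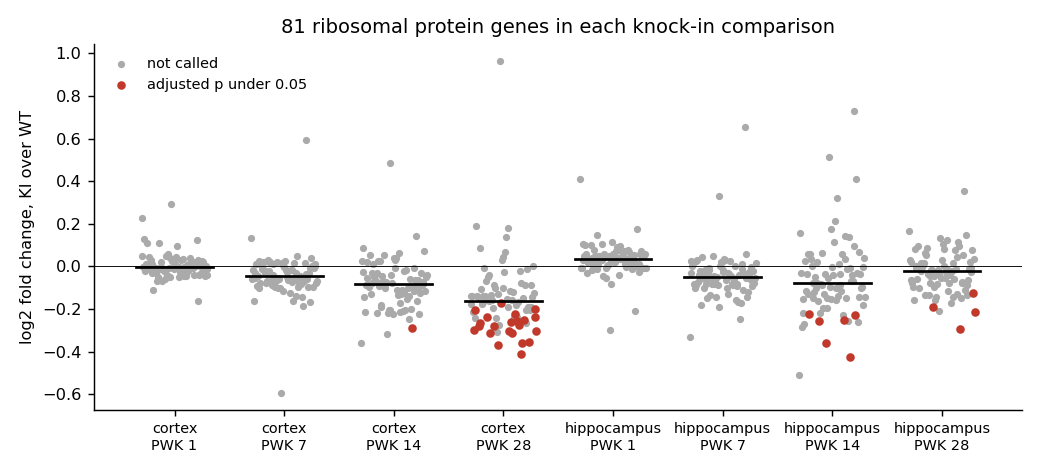
Log2 fold change, KI over WT, of the 81 ribosomal protein genes in each of the 8 genotype comparisons; points are genes, red where limma's adjusted p was under 0.05, and bars are medians. The medians run from 0.03 in hippocampus at PWK 1 to -0.16 in cortex at PWK 28, where 22 genes are red and all of these lie below 0.

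The size of this difference in cortex at PWK 28 was modest. The 22 genes had log2 fold changes from -0.17 (*Rpl4*) to -0.41 (*Rps21*). Of the 32 small subunit genes 12 were lower, with a median of -0.20 over the 32, and of the 49 large subunit genes 10, with a median of -0.14. The count depended on single libraries: it was 10 without KI replicate 1, 11 without KI replicate 4, and 7, 6 and 13 without WT replicates 1, 2 and 3. It was 35 after scaling to the library total and 44 in a fit over all 64 libraries. *Rpl21*, *Rpl30*, *Rpl37a*, *Rps10* and *Rps12* were called in all 8 fits that left out 1 library and in all 9 other alternatives.

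*Rps21* had the largest fall, and it was the only member called at PWK 14 and 28 in both regions. In cortex at PWK 28 it stood at 2730, 2514, 2098 and 2041 counts in WT and at 1567, 1851, 1959 and 1645 in KI libraries (limma, log2 fold change -0.41, SE 0.11, adjusted p = 0.0193). In hippocampus at PWK 14 it stood at 2210, 2627, 2054 and 1958 in WT and at 1630, 1566, 1642 and 1703 in KI libraries (-0.43, SE 0.09, adjusted p = 0.013). In none of these 4 comparisons did the genotypes overlap. In hippocampus at PWK 28 *Rps21* stood at 2964, 2908, 2788 and 2510 in WT and at 2257, 2151, 2402 and 2303 in KI libraries (-0.29, SE 0.06, adjusted p = 0.00814). In cortex at PWK 14 it stood at 2235, 2096, 2247 and 2259 against 1617, 1849, 1752 and 2049 (-0.29, SE 0.07, adjusted p = 0.0469), the weakest of these calls. The log2 fold changes were -0.01 in cortex and 0.05 in hippocampus at PWK 1, and -0.14 (adjusted p = 0.38) and -0.17 (adjusted p = 0.83) at PWK 7. The call in cortex at PWK 14 held under 5 of 17 alternatives. It was lost with total-sum or quantile scaling, with no filter on low values, with the replicate block, alone or with the GC and length correction, and in each fit that left out 1 library except that without KI replicate 4.

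Small subunit genes lower in KI cortex at PWK 28 included *Rps23*, at 2892, 3125, 2520 and 2162 counts in WT and 1815, 2253, 2153 and 2061 in KI libraries (log2 fold change -0.36, SE 0.11, limma adjusted p = 0.0411), where 1 KI library lay above the lowest WT library. *Rpsa* was at 8411, 8021, 7465 and 7143 counts in WT and 6250, 7193, 5937 and 5782 in KI libraries (-0.31, SE 0.08, adjusted p = 0.0191), also with 1 library of overlap. *Rps10*, which is not in the rule for named genes and is given for its stability, was at 2712, 2864, 2756 and 2507 in WT and 2202, 2308, 2329 and 2198 in KI libraries (-0.26, SE 0.06, adjusted p = 0.0101), without overlap. Other small subunit genes called included *Rps29*, *Rps12*, *Rps19*, *Rps25*, *Rps15* and *Rps9*, with log2 fold changes between -0.35 and -0.20. *Rps6*, in contrast, was at 4952, 4735, 4587 and 4522 in WT and 4769, 4762, 4912 and 4409 in KI libraries, with a log2 fold change of 0.00 and adjusted p = 0.97. *Rps27a*, which encodes a fusion of ubiquitin with a small subunit protein, had a log2 fold change of -0.20 (adjusted p = 0.095) there and *Rps4x* one of -0.09 (adjusted p = 0.35).

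Of the large subunit genes, *Rpl37a* was at 2741, 2765, 2145 and 2371 counts in WT and 1868, 2033, 2009 and 1825 in KI cortex at PWK 28 (log2 fold change -0.37, SE 0.09, limma adjusted p = 0.0135). *Rpl30* was at 2525, 2534, 2223 and 2314 in WT and 1814, 2041, 2074 and 1799 in KI libraries (-0.31, SE 0.07, adjusted p = 0.0119). Neither gene had any overlap between genotypes. *Rpl13*, *Rpl35a*, *Rpl21*, *Rpl27a*, *Rpl14* and *Rpl4* were among the others that were lower, with log2 fold changes from -0.30 to -0.17. *Rpl13a*, known for its release from the ribosome in the interferon response, had a log2 fold change of -0.24 that did not pass (adjusted p = 0.074), and *Rpl10* one of -0.18 (adjusted p = 0.39).

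The 3 stalk genes did not move together. *Rplp1* was lower, at 6725, 6817, 5228 and 5276 counts in WT and 4732, 5242, 4942 and 4482 in KI cortex at PWK 28 (log2 fold change -0.30, SE 0.10, limma adjusted p = 0.0481), with 1 KI library above the lowest WT library. *Rplp0* had a fold change of the opposite sign that did not pass, at 4092, 4424, 4003 and 3868 counts in WT and 5090, 4304, 4714 and 4461 in KI libraries (0.18, adjusted p = 0.078). *Rplp2* had a log2 fold change of -0.12 (adjusted p = 0.29). The difference between these genes was not tested.

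**Figure D4:**
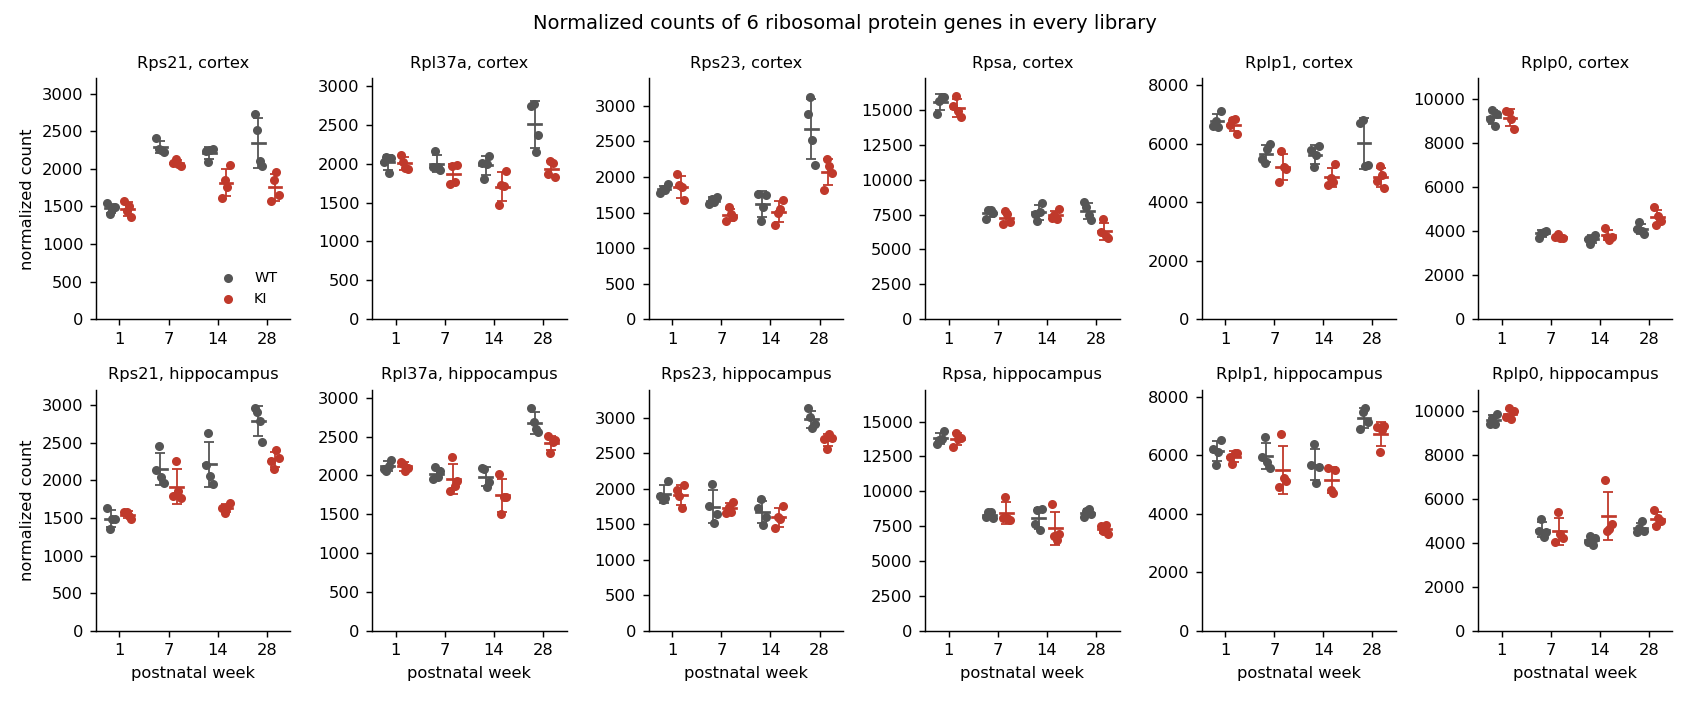
Normalized counts of *Rps21*, *Rpl37a*, *Rps23*, *Rpsa*, *Rplp1* and *Rplp0* in all 64 libraries by postnatal week (ages equally spaced), cortex above and hippocampus below; points are libraries, WT grey and KI red, and bars are means and SD of 4, on axes that start at 0. *Rplp0* and *Rpsa* drop after PWK 1, *Rps21* rises, and the KI points of *Rps21* lie under the WT points at PWK 14 and 28 in both regions.

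The 6 members lower in hippocampus at PWK 14 were *Rps21*, *Rpl37*, *Rpl30*, *Rps15*, *Rps27a* and *Rpl21*. *Rpl37* was at 2165, 2208, 1887 and 2059 counts in WT and 1702, 1691, 1509 and 1580 in KI libraries, without overlap (limma, log2 fold change -0.36, SE 0.07, adjusted p = 0.00969). *Rps27a* was at 4065, 4228, 4048 and 3975 in WT and 3727, 3413, 3263 and 3546 in KI libraries (-0.23, SE 0.06, adjusted p = 0.0253). The call of *Rps27a* held under 7 of 17 alternatives. All 6 had every KI library below every WT library. Of all members, 9 (11.1%) did, where 12.2% of all genes did. KI replicate 1 stood apart in this group: its *Rplp0* was 6863 counts against 4532 to 4865 in the other 3 and its share of members was 0.94% against 0.74 to 0.835%. Without it 16 members were called, without KI replicate 2 or 3 it was 3, and without WT replicate 1, 2 or 4 it was 2. The astrocyte markers summed to 73320 to 193000 counts in KI and 41000 to 45260 in WT libraries of this age, with 2 of 5 called higher, and their part in the members' values was not tested.

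The 4 members lower in hippocampus at PWK 28 included *Rps21*, *Rpsa* and *Rpl35a*. *Rpsa* was at 8180, 8619, 8719 and 8356 counts in WT and 7486, 7165, 7592 and 6964 in KI libraries, without overlap (limma, log2 fold change -0.21, SE 0.04, adjusted p = 0.00666). *Rpl35a*, a large subunit gene affected in some cases of Diamond-Blackfan anaemia, had a log2 fold change of -0.19 (adjusted p = 0.0445). The members' median was -0.02 and that of all genes 0.00. With KI replicates 1, 2 or 4 or WT replicates 1 or 2 left out 2 members were called, and with total-sum scaling 17, all lower. Of the markers, 3 of 5 for microglia and 2 of 5 for astrocytes were higher, 3 of 6 for neurons were higher and 1 lower, and 1 of 3 erythroid markers was lower. The microglia markers summed to 8458 to 8890 counts in KI and 6567 to 7680 in WT libraries, and the astrocyte markers to 71270 to 82980 and 42630 to 44270. Their part in the members' values was not tested. Over the 8 genotype comparisons 57 members were called in none, 17 in 1, 6 in 2 and *Rps21* in 4. Of the 18182 genes tested in all 8, 82% were lower in none, 11% in 1, 4.68% in 2, 1.85% in 3 and 0.451%, or 82 genes, in 4. The 6 included *Rpl21*, *Rpl30*, *Rpl35a*, *Rps15* and *Rpsa*. The 8 comparisons share no libraries, but the labels do not say whether cortex and hippocampus libraries came from the same mice. Same-numbered KI libraries of the 2 regions deviated together at PWK 28, with correlations of 0.239 to 0.443, and WT libraries did not (-0.0732 to 0.0473). For KI at PWK 14 they ran from -0.0268 to 0.462. Calls in the 2 regions may therefore not be independent.

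Whether the genotype difference itself differed between regions or ages was tested in limma. At PWK 28, 2 members had a less negative KI effect in hippocampus than in cortex. This is 2.47% of the members, where 2.39% of all genes were called in this direction. An unadjusted p under 0.05 was found for 15 of the 81 members and for 18.6% of all genes. *Rpl29* was at 3647, 3517, 3347 and 3342 counts in WT and 3159, 3146, 3143 and 2935 in KI cortex, and at 3023, 3102, 3036 and 2963 in WT and 3300, 3067, 3352 and 3170 in KI hippocampus, a difference of the log2 effects of 0.25 (SE 0.06, adjusted p = 0.0328). *Rps9* was at 3845, 3653, 3790 and 3450 in WT and 3151, 3400, 3191 and 3068 in KI cortex, and at 4058, 4022, 4095 and 4085 in WT and 4230, 4030, 4194 and 4186 in KI hippocampus, a difference of 0.24 (SE 0.06, adjusted p = 0.0391). Both genes were thus lower in every KI library than in every WT library in cortex and overlapped, with means slightly higher in KI, in hippocampus, although the KI effect of *Rpl29* in cortex alone did not pass (adjusted p = 0.054). The sign of the difference was positive in 75 of the 81 members, with a median of 0.14. The count moved in 13 of the 16 fits that left out 1 library, to 4 without KI cortex replicate 2 and to 0 or 1 otherwise. With the replicate number as a block, *Rpl29* alone was called, and *Rps9* had an adjusted p of 0.0567 in limma. Same-numbered KI libraries of the 2 regions deviated together at this age, with correlations of 0.239 to 0.443, and WT libraries did not, with -0.0732 to 0.0473.

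At PWK 14 no member differed between regions in its KI effect (0 in limma, 2.85% of all genes called). An unadjusted p under 0.05 was found for 1 member and for 17.7% of all genes. *Rpl3* had the smallest p (-0.19, limma adjusted p = 0.24). Between PWK 14 and PWK 28 no member differed in cortex or in hippocampus (0 in each, with 0% of all genes called). An unadjusted p under 0.05 was found for 3 members in cortex and 1 in hippocampus. For all genes these shares were 15.1% and 12.4%. The smallest p belonged to *Rpl27a* in cortex (-0.20, adjusted p = 0.22) and to *Rps14* in hippocampus (0.24, adjusted p = 0.35). The KI effect at PWK 28 was thus not shown to differ from that at PWK 14 for any member in either region.

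The 22 members lower in KI cortex at PWK 28 were set beside the WT age course. Of these, 11 rose in WT cortex between PWK 7 and PWK 28 and 0 fell. Over these weeks 37% of all members rose and 3.7% fell, and of all genes 9.82% and 10.7%. Between PWK 1 and PWK 7, 12 of the 22 fell and 3 rose. There 66.7% of all members fell and 6.17% rose, and of all genes 32.3% and 33.2%. The WT cortex libraries at PWK 28 enter both comparisons, so the first count is not independent of the genotype difference.

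Other translation genes did not fall with the members in KI cortex at PWK 28. Of all genes tested, 12.2% were higher there. Of 34 initiation factor genes 8 were higher and 0 lower, with a median log2 fold change of 0.13. They included *Eif3c* (0.38), *Eif2s1*, the alpha subunit of eIF2 (0.38), *Eif3d* (0.34) and *Eif6*, which keeps free large subunits from joining (0.34). Of 13 genes of elongation factors and other TOP messenger RNAs, *Eef2* (0.21) and *Pabpc1* (0.28) were higher and 0 were lower. Of the 78 mitochondrial ribosomal protein genes 5 were higher and 1 lower, with a median of 0.06. Of 30 ribosome biogenesis genes 2 were higher and 3 lower, among the latter *Ubtf*, a factor of ribosomal RNA transcription (-0.48), and of 18 genes of mTOR, Myc and TOP control 2 were higher and 2 lower, with *Larp1* at 0.18, *Rptor* at 0.28, *Eif4ebp2* at -0.44 and *Mycn* at -1.97. The 4 ribosomal proteins whose names the rule does not match had 0 calls and a median of -0.04.

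In hippocampus, 7.64% of all genes were higher and 7.95% lower at PWK 14, and 8.92% and 6.91% at PWK 28. At PWK 14, 2 of 34 initiation factor genes were higher and 0 lower, and at PWK 28 the counts were again 2 and 0. Of the 13 genes of the elongation and TOP list 2 were higher and 0 lower at each age. Of the 30 biogenesis genes 1 was higher and 1 lower at PWK 14, and 0 and 3 at PWK 28. Of the 78 mitochondrial ribosomal protein genes 3 were higher and 0 lower at PWK 14, and 0 and 0 at PWK 28. Of the 18 genes of mTOR, Myc and TOP control 1 was higher and 2 lower at PWK 14, and 0 and 2 at PWK 28.

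Markers of other cell types also differed in KI cortex at PWK 28. The 3 erythroid markers were all lower, with sums of 2075 to 4190 counts in KI and 5388 to 6098 in WT libraries. Of the 6 neuronal markers 2 were higher, with sums of 227400 to 247700 against 181700 to 206000. Of the 2 immature neuron markers *Dcx* was lower (-0.86), with sums of 1201 to 1974 against 1882 to 3236. Of the 5 astrocyte markers 1 was higher and 2 lower, and of the 5 microglia markers 1 was higher. None of the 4 oligodendrocyte, 2 precursor, 3 endothelial, 3 choroid plexus and 3 dividing cell markers was called. The choroid plexus sum ran from 278.2 to 21120 in WT and from 273.7 to 931.6 in KI libraries. The part of these differences in the members' fall was not tested. In hippocampus at PWK 28 mitochondrially encoded RNA took 7.44 to 8.32% of the counts in KI and 6.76 to 6.97% in WT libraries, and the members' share of the remaining counts was 0.965 to 1.03% in KI and 1.04 to 1.06% in WT.

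Transcript length and GC content were checked because the members are short. In KI cortex at PWK 28 the Spearman correlation of the members' fold change with length was 0.324 over 81 genes and with GC content 0.0428, and over all genes -0.023 and 0.0656, given as a description of genes in the same libraries. Of the 62 members under 1000 bases 17 were lower (median -0.17), and of the 19 longer members 5 (median -0.14). The 1841 other genes under 1000 bases had a median of 0.02, with 5.98% lower and 8.91% higher. Among these, the 236 genes under 500 bases had a median of -0.06, with 5.51% lower and 5.08% higher. The part of transcript length in the members' fall was not tested. The members' correlation with length was 0.371 in cortex at PWK 14. With the WT age changes it had the opposite sign. From PWK 7 to PWK 28 it was -0.312 in cortex and -0.4 in hippocampus, and from PWK 1 to PWK 7 -0.245 and -0.196.

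**Figure D5:**
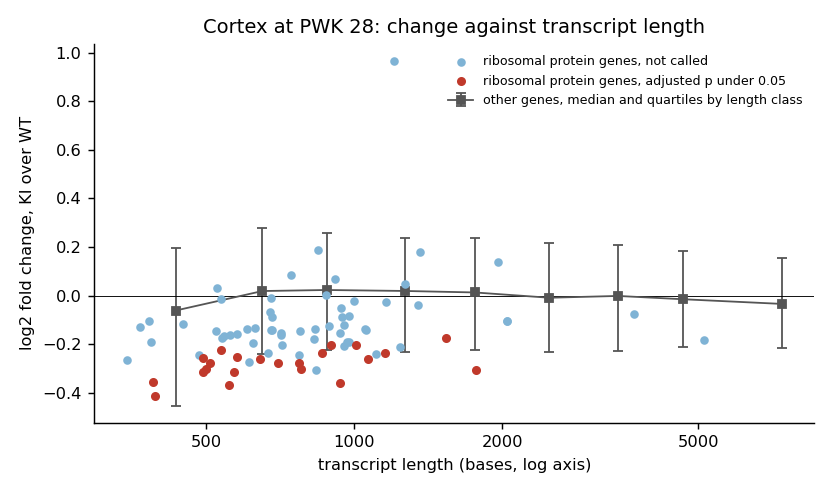
Log2 fold change, KI over WT, in cortex at PWK 28 against transcript length (log axis): points are the 81 ribosomal protein genes, red where limma's adjusted p was under 0.05, and squares with bars are medians and quartiles of all other genes by length class. The 22 red points were all called lower and so lie below 0 by selection. The medians of other genes by length class stay between -0.06 and 0.02.

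The promoter features were set beside the same difference. Of the 31 members with a pyrimidine tract 8 were lower in KI cortex at PWK 28, with a median log2 fold change of -0.15 over the 31, and of the 30 without one 7 were lower, with a median of -0.18. Of the 25 with CCGGAAG 5 were lower (median -0.13), and of the 36 without it 10 (median -0.18). Of the genes whose tracts are printed above, *Rpl35a*, *Rps9* and *Rpl13* were lower, and *Rps6* and *Rplp2* were not called. Of those whose CCGGAAG stretches are printed, *Rps21* and *Rpsa* were lower, and *Rps2* and *Rpl37* were not called.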

How the data were processed

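The deposited table gave normalized signal: the authors estimated transcript abundance with Salmon on GRCm38, imported it with tximport and divided gene counts by size and transcript length factors in DESeq2. The submitters' processing notes name Salmon 0.11.2, DESeq2 1.19.11 and R 3.6.0, and the study's methods give other versions. The labels name an mRNA kit and the methods a total RNA kit. Whole reads could not be recovered from the values, so read depth is not given and precision was judged from replicates.

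Values were tested as log2(value + 1) with limma-trend (limma 3.58.1, R 4.3.3) in place of the count model first planned, for genes with a mean of at least 1, with adjustment over all genes. Fold changes are on that scale, which understates changes of low genes. Genotype and region comparisons each used their own 4 against 4 libraries. Age comparisons were fitted on the 16 WT libraries of a region, which shared 1 estimate of the spread, and interactions used 16. The test was checked on simulated data. GENCODE vM21 gave names, lengths and GC content; 12 genes had no match. Tables and figures used Python 3.11.15, numpy 2.4.6, pandas 2.3.3, scipy 1.17.1 and matplotlib 3.10.9.

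The members and lists were chosen with earlier results of these data known. Genes named by rule were the stalk genes, paralogues with the members they resemble, *Rps6*, *Rps4x*, *Rpsa*, *Rps27a*, *Rpl10*, *Rpl13a*, up to 3 called members per direction and comparison by fold change, the smallest p of each interaction, and the 3 highest and lowest per kb. Other names, among them the remaining called members, the list genes and *Rps26*, were chosen after their values were seen. Single values of some members are not reported here.

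Replicate numbers were taken to pair libraries only where all 4 same-numbered pairs deviated together, by a correlation over 0.1 across 12819 genes. This held between cortex and hippocampus for WT at PWK 1 (0.102 to 0.256), where the replicate block gave 7 calls in place of 5, and for KI at PWK 28 (0.239 to 0.443), which enters the interaction with region. Alternatives were a pseudocount of 10, no filter, other scalings, a GC and length correction, the block, a fit over all libraries, and leaving out each library.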

Additional observations from a re-analysis of the deposited data

Results flagged for a closer look

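Single libraries were set against the other 3 of their group for 10 members and the share of all members, with Dixon's test. Of 176 groups 18 stood out, where chance gives about 1 in 20. *Rps27*, whose counts are divided with its retrocopy, gave 8 of them: 135 counts in WT cortex at PWK 1 (replicate 2, others 44 to 56), 154 in KI cortex at PWK 1 (replicate 2, others 46 to 62), 376 in KI cortex at PWK 7 (replicate 2, others 37 to 61), 69 in KI cortex at PWK 14 (replicate 3, others 50 to 52), 1091 in KI cortex at PWK 28 (replicate 3, others 55 to 69), 286 in KI hippocampus at PWK 7 (replicate 4, others 49 to 61), 249 in KI hippocampus at PWK 14 (replicate 4, others 43 to 70) and 127 in WT hippocampus at PWK 28 (replicate 1, others 53 to 59).

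The other flags were spread over genes and groups. *Rpl29* was at 4816 counts in KI cortex replicate 4 at PWK 1 (others 5092 to 5123) and at 2935 in KI cortex replicate 4 at PWK 28 (others 3143 to 3159). *Rpl37a* was at 2164 in WT cortex replicate 2 at PWK 7 (others 1922 to 1960), *Rps21* at 2096 in WT cortex replicate 2 at PWK 14 (others 2235 to 2259) and *Rpl10* at 1503 in WT hippocampus replicate 2 at PWK 7 (others 855 to 897). KI hippocampus replicate 2 at PWK 7 had high *Rpsa*, 9622 (others 7952 to 8059), and high *Rplp1*, 6727 (others 4934 to 5233). *Rplp0* was at 6863 in KI hippocampus replicate 1 at PWK 14 (others 4532 to 4865). KI hippocampus replicate 2 at PWK 28 was low in the share of all members, 0.893% (others 0.934 to 0.94%), and in *Rplp1*, 6108 (others 6872 to 6996).

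For 2 members the KI effect at PWK 28 differed between hippocampus and cortex in limma's interaction test: *Rps9* by 0.24 (adjusted p = 0.0391) and *Rpl29* by 0.25 (adjusted p = 0.0328), both less negative in hippocampus. These are 2.47% of the members, where 2.39% of all genes were called in this direction. *Rps9* was still called in 9 and *Rpl29* in 17 of 25 alternatives.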

How the results depend on the processing

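Counts of called members were recomputed under every alternative, and the cause of a change was not tested. In cortex at PWK 14 (1 call) no filter, total-sum scaling and quantile scaling each gave 0, and a fit of all 64 libraries 10. In cortex at PWK 28 (22) total-sum scaling gave 35 and the fit of all libraries 44, of which 1 was higher. For hippocampus at PWK 14 (6) total-sum scaling gave 3, the GC and length correction 11 and the fit of all libraries 24, and at PWK 28 (4) total-sum scaling gave 17 and the correction 16. Between WT regions total-sum, quantile and block with correction gave 23, 24 and 11 at PWK 1 (5), and total-sum, quantile and correction 20, 17 and 17 at PWK 14 (11). The median at PWK 1 turned from -0.00 to 0.0942 (total sum, where that of all genes moved to 0.0947) and 0.0723 (quantile). For the interaction with region, the fit of all libraries gave 1 at PWK 14 (0) and the correction 1 at PWK 28 (2). Libraries of the 2 genotypes share only replicate numbers: with the replicate block, hippocampus gave 2 calls at PWK 14 and 2 at PWK 28 (7 with the correction), the interaction at PWK 28 gave 1 (1 with the correction), and the block moved no other count by over 1.5 times. Leaving out 1 library gave 0 to 7 calls in cortex at PWK 14, 6 to 27 in cortex at PWK 28, 2 to 16 and 2 to 6 in hippocampus at PWK 14 and 28, 4 to 10, 5 to 10 and 14 to 31 between regions at PWK 1, 14 and 28, 0 to 4 for the region interaction at PWK 28 and 0 to 1 for the age interaction in cortex. No named called member changed sign. Of their results under other alternatives, 1525 still passed and 104 no longer did. With 1 library left out 1226 still passed and 238 no longer did. With 4 libraries per group and unknown read depth, small differences of weak members such as *Rpl3l* were not detectable.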
